A study of Homo sapiens with 2 samples.

Results

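Keratins, tight junctions and desmosomes hold epithelial cells together, and their genes were followed here from MDA-MB-231 cells to a radiotherapy-resistant derivative. The set has 33 genes, listed by symbol, of 24462 gene symbols in the deposited count tables, and all 33 were in the tables. It was divided by function into 6 keratins, 10 tight junction genes, 10 desmosome genes, and 7 epithelial regulators and surface genes. MDA-MB-231 is an established human breast cancer line that lacks the hormone receptors and HER2 amplification (triple negative), and it was the parental group. RT-R-MDA-MB-231, the RT-R group, was derived from it by repeated X-ray doses of 2 Gy until 50 Gy had been given. Both lines grew in the same RPMI medium with fetal bovine serum and antibiotics. Whether the derivative is a single clone or a pool of survivors is unknown here.

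Each line gave 1 library of 3' tags, short reads from the ends of polyadenylated transcripts, and the libraries held 9255008 (parental) and 10014804 (RT-R) counts. Without replicates, differences below are between these libraries and carry no p-value. Ratios are of counts scaled to equal library size, and the ranges in parentheses are 95% intervals for counting error alone. Whether PCR copies of a molecule were removed is not given in the sources used here, so copies may be counted as separate reads. Variation between cultures is not covered. A gene was called higher or lower in RT-R when 20 or more counts were present in a library, the ratio was 2-fold or more, and its interval excluded 1. The labelled cell type was checked by its markers. The mesenchymal filament gene VIM had 4310 parental and 8454 RT-R counts. Of the other mesenchymal-type markers, CD44 had 2560 and 3129, ZEB1 320 and 458, and CAV1, which lay lower, 4816 and 4001. Of the receptor genes, ESR1 had 0 and 1 counts and PGR was at 0 in both, whereas ERBB2, the HER2 gene, had 230 and 174. Of 5 luminal markers, 4 were measured and 0 were called, where 6.89% of all measured genes were called higher and 3.97% lower. GATA3 had 152 and 113 counts and SPDEF 162 and 104, whereas CDH1 had 32 and 68 and ERBB3 53 and 91. FOXA1 had 11 and 7. Of the blood and endothelial markers, PTPRC and CD3E were at 0 in both and CDH5 had 0 and 1 counts, whereas PECAM1 had 223 and 50. PECAM1, the only 1 of these that was measured, was called lower, 4.97-fold (3.65 to 6.90), where 3.97% of all measured genes were. The part of other cell types in the results was not tested.

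Keratins are the intermediate filaments of epithelial cells and assemble as pairs of one type I and one type II protein. Desmosomes anchor these filaments to the membrane: the cadherins DSG and DSC span the gap between cells, plakoglobin and the plakophilins bind their tails, and desmoplakin ties the whole to keratin. Tight junctions seal the space between cells with claudins, occludin and tricellulin, held from inside by the ZO proteins and cingulin. Cells that have gone through an epithelial-mesenchymal transition keep these structures only in part, and MDA-MB-231 is often used as a line of that kind.

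Gene start regions are shown for 3 of the genes called below, CLDN4 (lower) and CLDN7 and DSP (higher), and for CLDN3, which adjoins CLDN4 on chromosome 7. The windows run from 250 bases before to 50 bases after a gene start, from RefSeq on GRCh38.p14, and are written 5′ to 3′. They lie at chr7:73830746-73831045 on the plus strand for CLDN4, chr7:73770221-73770520 on the minus strand for CLDN3, chr17:7263164-7263463 and chr17:7262429-7262728 on the minus strand for the first and the other CLDN7 start, and chr6:7541421-7541720 on the plus strand for DSP. Capitals mark the letters CACCTG (the E-box form bound by ZEB and SNAIL repressors) and TGANTCA (a loose form of the AP-1 site), searched on both strands, and no match of one overlapped a match of the other.
CLDN4: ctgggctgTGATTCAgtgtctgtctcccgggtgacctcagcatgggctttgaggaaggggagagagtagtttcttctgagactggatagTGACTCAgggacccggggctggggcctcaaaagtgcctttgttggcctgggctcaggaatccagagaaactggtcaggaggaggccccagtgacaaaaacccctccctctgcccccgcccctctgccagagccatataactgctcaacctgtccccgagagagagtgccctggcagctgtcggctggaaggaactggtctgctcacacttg
CLDN3: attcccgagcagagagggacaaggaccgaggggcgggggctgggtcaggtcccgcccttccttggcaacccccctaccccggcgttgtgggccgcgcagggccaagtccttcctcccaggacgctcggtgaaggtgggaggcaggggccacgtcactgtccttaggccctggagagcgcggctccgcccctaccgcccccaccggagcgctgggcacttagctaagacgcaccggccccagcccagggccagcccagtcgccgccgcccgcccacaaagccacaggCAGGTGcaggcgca
CLDN7, first start: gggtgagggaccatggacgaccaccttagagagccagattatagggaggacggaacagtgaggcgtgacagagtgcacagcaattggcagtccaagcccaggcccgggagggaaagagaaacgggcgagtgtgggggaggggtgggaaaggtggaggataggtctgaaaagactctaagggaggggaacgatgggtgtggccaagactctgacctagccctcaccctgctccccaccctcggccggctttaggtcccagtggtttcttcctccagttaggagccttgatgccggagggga
CLDN7, other start: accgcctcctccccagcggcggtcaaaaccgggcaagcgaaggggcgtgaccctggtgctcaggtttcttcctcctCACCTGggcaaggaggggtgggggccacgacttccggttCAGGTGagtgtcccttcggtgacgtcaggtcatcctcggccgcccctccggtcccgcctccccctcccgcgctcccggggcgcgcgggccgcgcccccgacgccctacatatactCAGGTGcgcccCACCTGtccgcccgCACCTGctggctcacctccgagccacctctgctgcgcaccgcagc
DSP: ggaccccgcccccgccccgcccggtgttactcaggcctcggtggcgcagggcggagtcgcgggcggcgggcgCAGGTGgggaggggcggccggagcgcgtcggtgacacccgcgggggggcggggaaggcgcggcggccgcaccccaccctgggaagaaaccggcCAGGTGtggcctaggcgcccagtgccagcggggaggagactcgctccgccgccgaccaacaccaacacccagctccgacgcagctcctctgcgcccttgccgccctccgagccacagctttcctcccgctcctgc
The CLDN4 window held 2 AP-1 matches and 0 E-box matches. The CLDN3 window held 1 E-box match, the other CLDN7 window 5 and the DSP window 2. The first CLDN7 window held neither motif. CGN and TJP3, also called higher below, have windows that are not shown. The CGN window held 0 E-box matches, and the 2 TJP3 windows held 0 and 1. For F11R, the other gene called higher, no window was found. Windows were found for 17 of the 33 genes, 26 windows in all. CACCTG was in 11 of the 26 windows and in 20.6% of all 35116 windows, and TGANTCA was in 1 of the 26 and in 7.71% of all. The Grainyhead site AACCGGTT, searched in the same way, was in 0 of the 26 and in 0.134% of all. The member windows had a median GC content of 67.5%, against 58.7% over all windows. A match is a description of the letters and not evidence of binding.

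Across the 33 genes, 5 were called higher in RT-R (CLDN7, F11R, TJP3, CGN and DSP) and 1 was called lower (CLDN4). Over all 12644 genes that reached 20 counts, 6.89% were called higher and 3.97% lower. Of the 33, 28 reached the count minimum, 25 of them in both libraries. TJP3, CGN and EPCAM reached it through the RT-R library alone, so they could pass only by being high there. MARVELD2, DSC3, ESRP1, OVOL1 and GRHL2 stayed under 20 counts in both. The 33 genes together took 26823 parental counts, 0.29% of that library, and 25923 RT-R counts, 0.259%. The plot of counts by gene shows that keratins held most of these reads.

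**Figure D1:**
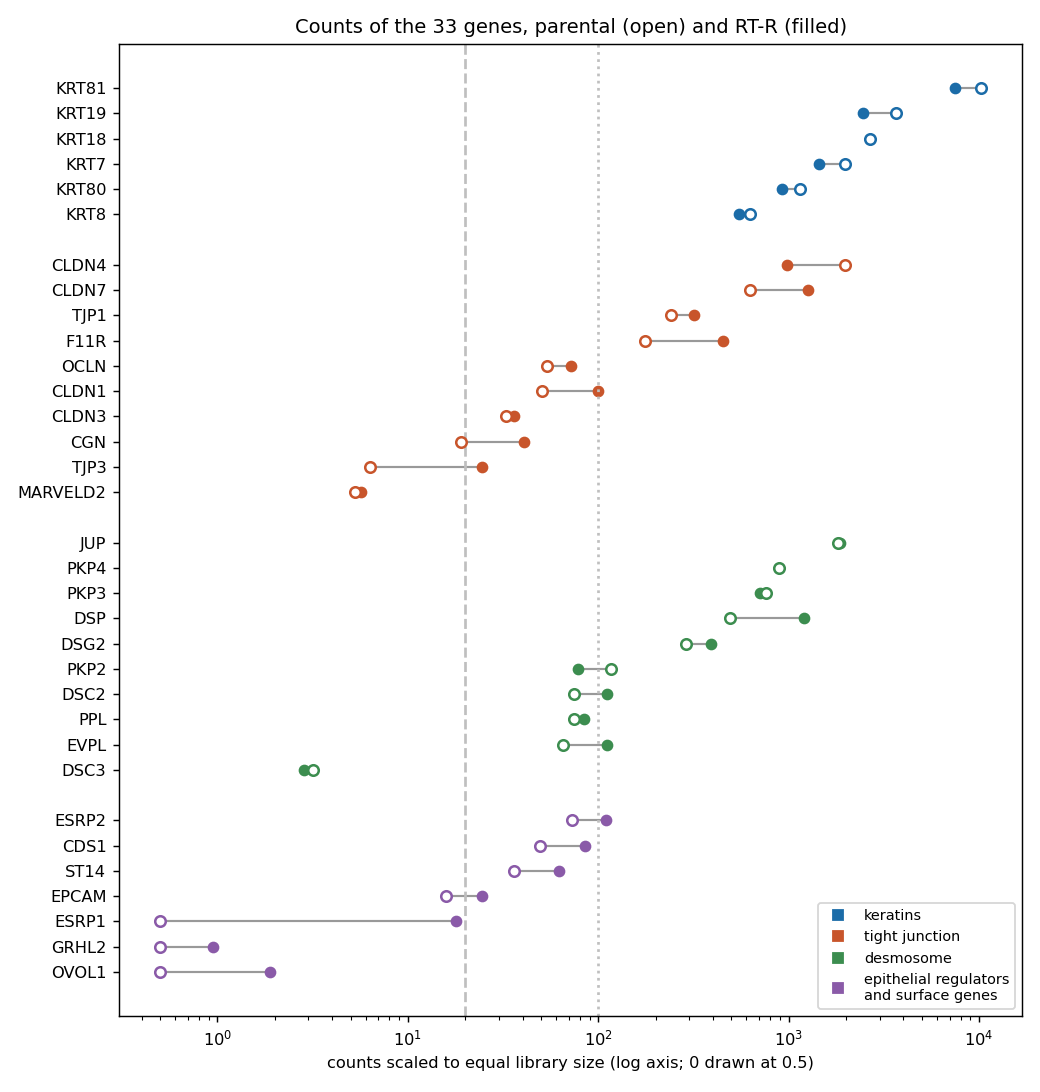
Counts of the 33 genes scaled to equal library size (x, log axis, a count of 0 drawn at 0.5), with the parental library open and the RT-R library filled, and guide lines at 20 and 100. Among the keratins the filled points sit at or left of the open ones, whereas DSP, F11R and CLDN7 sit to the right and CLDN4 to the left.

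None of the 6 keratins was called, where 6.89% of all measured genes were called higher and 3.97% lower. In 5 of the 6 the interval lay wholly below equal expression, as it did in 45.6% of all 3859 genes with a mean scaled count of 500 or more, a class that holds all 6 keratins. At such depth small differences exclude 1. KRT81, a type II keratin best known from hair, had 9731 parental and 7903 RT-R counts, 1.37-fold lower (1.33 to 1.42). KRT19, a type I keratin of glandular epithelia, had 3484 and 2585 counts, 1.503-fold lower (1.43 to 1.58). These are the keratins with the most and the second most parental counts, and neither came near the 2-fold limit. KRT7, a type II keratin of simple epithelia, had 1871 and 1519 counts, 1.37-fold lower (1.28 to 1.47). KRT80, a type II keratin that lies near desmosomes, had 1091 and 979 counts, 1.24-fold lower (1.14 to 1.36). These 4 keratins all lay lower, by 1.24-fold to 1.503-fold. The classical pair of simple epithelia lay closer to equal. KRT8, the type II partner, had 590 and 578 counts, 1.14-fold lower (1.01 to 1.28). KRT18, the type I partner, had 2525 and 2816 counts, for a ratio of 1.00 (0.947 to 1.06), so its higher raw count matched the larger library.

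The make-up of the keratin reads shifted by a few percentage points. KRT18 took 13.1% of the 19292 keratin counts in the parental library (12.6 to 13.6, exact Clopper-Pearson interval) and 17.2% of 16380 in RT-R (16.6 to 17.8). KRT19 went from 18.1% (17.5 to 18.6) to 15.8% (15.2 to 16.4). KRT81 remained the largest part, at 50.4% (49.7 to 51.2) and 48.2% (47.5 to 49.0). Type I keratins together made up 31.1% (30.5 to 31.8) and 32.97% (32.2 to 33.7). These are shares of reads and not of protein. Some keratin reads cannot be assigned with certainty. In the RefSeq gene table KRT8 overlaps KRT18, and KRT81 overlaps KRT86, a close copy with 126 and 135 counts. The KRT18 pseudogene in the tables, KRT18P55, had 26 and 46 counts.

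Other keratins gave little signal. Of 37 further keratin genes, 21 were at 0 in both libraries and 4 reached 20 counts in a library: KRT10, KRT15, KRT34 and KRT86. None of these 4 was called, against 6.89% higher and 3.97% lower over all measured genes. The basal keratin gene KRT5 was at 0 in both libraries and its partner KRT14 had 2 and 1 counts. KRT17 had 0 parental and 6 RT-R counts.

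The tight junction genes held the widest spread. Of 9 measured genes, 4 were called higher and 1 lower, where 6.89% and 3.97% of all measured genes were, and 2 of the 4, TJP3 and CGN, reached the count minimum in RT-R alone. With TJP3 and CGN included, the median log2 ratio was 0.97, against -0.01 over all measured genes. F11R, which encodes the junctional adhesion molecule JAM-A, had 167 parental and 476 RT-R counts and rose 2.56-fold (2.14 to 3.07). CLDN7, a claudin of many epithelia, had 591 and 1327 counts and rose 2.01-fold (1.83 to 2.22). CLDN4, a claudin that tightens the paracellular seal, had 1878 and 1030 counts and fell 2.03-fold (1.88 to 2.196). All 3 had over 100 counts in both libraries, but the intervals of CLDN7 and CLDN4 reach below 2-fold. Scaled by total counts, CLDN4 had a log2 ratio of -0.98 and was no longer called. After subtraction of its chromosomal neighbours, described below, its log2 ratio was -0.64.

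CLDN4 and CLDN7 exchanged rank within the claudin reads. CLDN4 gave 73.7% (71.9 to 75.4) of the 2548 parental counts over CLDN1, CLDN3, CLDN4 and CLDN7 and 41.2% (39.3 to 43.2) of the 2500 RT-R counts. CLDN7 went from 23.2% (21.6 to 24.9) to 53.1% (51.1 to 55.1). The raw sums over these 4 genes were close, but the RT-R library was the larger, so the scaled sum was lower there. The make-up of the sum was not alike in the 2 libraries. Other claudins, among them CLDN12, CLDN15 and CLDN22, were left out of it. CLDN1, a claudin needed for the barrier of the skin, had 48 and 105 counts, for a ratio of 1.96 (1.38 to 2.82), just short of the limit. Scaling by total counts or by the upper quartile put it past the limit, at log2 ratios of 1.01 and 1.00. CLDN3, the neighbour of CLDN4, had 31 and 38 counts, for a ratio of 1.10 (0.666 to 1.83). Reads of CLDN7 are uncertain because ELP5 overlaps it in the RefSeq table, with 323 and 500 counts, and whether the counting used strand is not known.

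**Figure D2:**
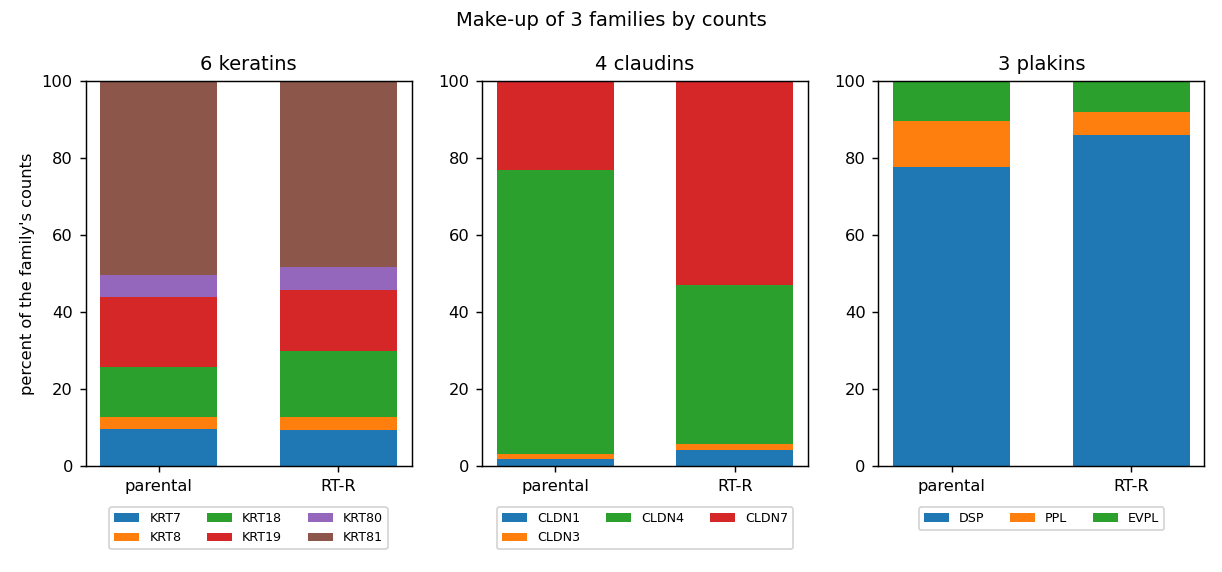
Percent of the counts of 6 keratins, 4 claudins and 3 plakins (y) taken by each gene in the parental and RT-R libraries. CLDN4 shrinks from 73.7% to 41.2% and CLDN7 grows from 23.2% to 53.1%, while the keratin columns are nearly alike.

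The scaffold genes of the set beneath the claudins, TJP1, TJP3 and CGN, lay above equal expression. TJP1, encoding ZO-1, had 228 and 336 counts, for a ratio of 1.32 (1.11 to 1.57), and was not called. TJP3, encoding ZO-3, had 6 and 26 counts and rose 3.89-fold (1.56 to 11.5). CGN, which encodes cingulin, a link between ZO proteins and actomyosin, had 18 and 43 counts and rose 2.14-fold (1.21 to 3.95). Both calls rest on small counts. TJP3 overlaps APBA3, which had 57 and 121 counts, so its reads cannot be told apart from those of APBA3 with certainty. After subtraction of the median log2 ratio of genes with like mean counts, neither TJP3 nor CGN was called. Of the other membrane proteins, OCLN, encoding occludin, had 51 and 76 counts, for a ratio of 1.34 (0.925 to 1.94). MARVELD2, encoding tricellulin, which seals the corners where 3 cells meet, had 5 and 6 counts, for a ratio of 1.08 (0.274 to 4.46). The OCLN interval included equal expression and ended just under 2-fold, so a difference smaller than that cannot be told from none. A difference in MARVELD2 was not detectable at this depth.

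The wider tight junction list had 47 further genes, of which 26 were measured, 2 were called higher and 3 lower, where 6.89% and 3.97% of all measured genes were. PATJ reached 20 counts in RT-R alone, and CLDN2 and PARD6G in the parental library alone, so these 3 could pass only by being high there. LSR, encoding the lipolysis-stimulated receptor angulin-1 of tricellular junctions, rose from 180 to 473 counts, 2.36-fold (1.98 to 2.81). PATJ, a polarity scaffold listed in the tables under its older symbol INADL, rose from 11 to 27 counts, 2.201-fold (1.06 to 4.92). MAGI1, another junctional scaffold, fell from 513 to 245 counts, 2.33-fold (2.00 to 2.73). CLDN2, a claudin that forms cation pores, fell from 23 to 7 counts, 3.66-fold (1.52 to 10.1). The polarity gene PARD6G fell from 25 to 12 counts, 2.32-fold (1.12 to 5.08). Over these 26 genes the median log2 ratio was -0.04. After subtraction of chromosomal neighbours, described below, MAGI1 had a log2 ratio of -0.56, CLDN2 of -0.98 and PATJ of 0.85. None of these was then called, whereas LSR and PARD6G still were.

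Among the desmosome genes 1 of 9 measured was called higher and 0 lower, where 6.89% and 3.97% of all measured genes were, so the count itself is close to the background. The gene called was DSP. It encodes desmoplakin, the plakin that joins the plaque to keratin filaments. DSP had 464 parental and 1276 RT-R counts and rose 2.47-fold (2.21 to 2.75). Its whole interval lay above 2-fold, as did that of F11R. EVPL and PPL encode envoplakin and periplakin, plakins of the cornified envelope. EVPL had 62 and 118 counts, for a ratio of 1.71 (1.24 to 2.36), and PPL had 71 and 89 counts, for a ratio of 1.12 (0.814 to 1.56). DSP took 77.7% (74.2 to 81.0) of the reads over these 3 plakins in the parental library and 86.0% (84.2 to 87.8) in RT-R.

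The desmosomal cadherins lay modestly higher without a call. DSG2, the desmoglein found in all cells that make desmosomes, had 275 and 412 counts, for a ratio of 1.34 (1.15 to 1.57). DSC2, the matching desmocollin, had 71 and 118 counts, for a ratio of 1.49 (1.10 to 2.03). DSC3, a desmocollin of stratified epithelia, had 3 counts in each library, and no ratio is given. DSG2 and DSC2 held nearly the same shares of the cadherin reads in both libraries, 78.8% (74.1 to 83.0) and 77.3% (73.5 to 80.8) for DSG2. DSG2-AS1, which overlaps DSG2, had 25 and 29 counts.

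The plaque proteins that bind the cadherin tails were close to equal. JUP, encoding plakoglobin, had 1727 and 1969 counts, for a ratio of 1.02 (0.958 to 1.09). PKP4, encoding a plakophilin-related protein also known as p0071, had 840 and 943 counts, for a ratio of 1.01 (0.916 to 1.11). PKP3, a plakophilin of most desmosomes, had 720 and 749 counts, 1.07-fold lower (0.966 to 1.19). None of these 3 intervals reached 1.5-fold in either direction. PKP2, a plakophilin of simple epithelia and heart, stood apart with 110 and 83 counts, 1.48-fold lower (1.10 to 1.99), and was not called. Thus DSP was called higher while the plakoglobin and plakophilin genes beside it in the plaque were not. Of 8 further desmosome and cornified junction genes, 2 were measured and 0 were called, where 6.89% and 3.97% of all measured genes were called higher and lower. These were PERP, with a ratio of 1.175 (1.06 to 1.30), and PNN, with a ratio of 1.11 (1.03 to 1.195). DSG1 and PKP1, typical of stratified epithelia, were at 0 in both libraries, and DSG3 had 2 and 3 counts.

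**Figure D3:**
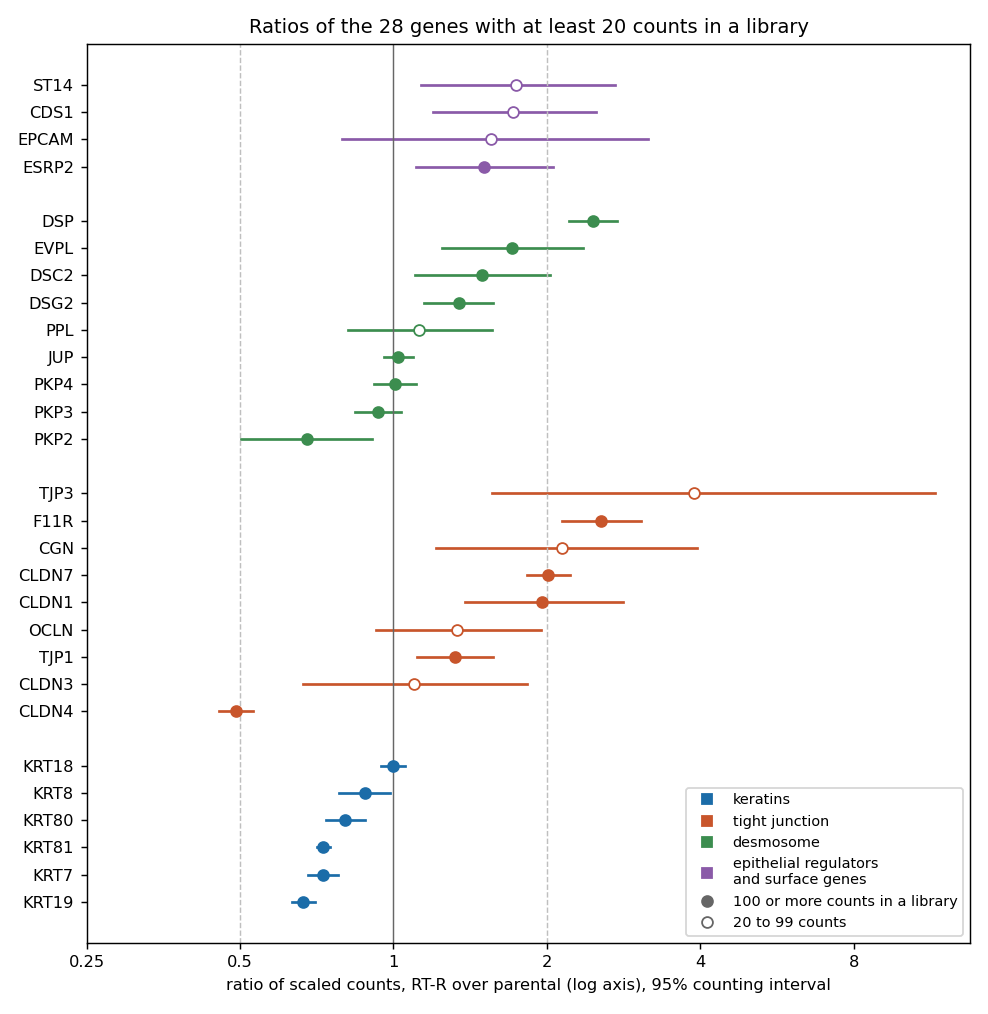
Ratio of scaled counts, RT-R over parental (x, log axis), with 95% counting intervals for the 28 measured genes, where filled points have 100 or more counts in a library and open points 20 to 99. Only F11R and DSP have intervals wholly beyond 2-fold, and the keratin intervals lie at or below 1.

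None of the 4 measured epithelial regulators and surface genes was called, and all 4 had ratios between 1.51 and 1.74. Over all measured genes 14.9% were at least 1.5-fold higher by the ratio alone, and 27.7% of those with 20 to 99 counts. EPCAM, the epithelial cell adhesion molecule, had 15 and 26 counts, for a ratio of 1.55 (0.793 to 3.16). ST14, encoding the membrane protease matriptase, had 34 and 66 counts, for a ratio of 1.74 (1.13 to 2.72). CDS1, a CDP-diacylglycerol synthase of phospholipid metabolism, had 47 and 90 counts, for a ratio of 1.72 (1.19 to 2.50). The splicing regulator ESRP2, which promotes epithelial exon choices, had 69 and 116 counts, for a ratio of 1.51 (1.11 to 2.06). NFATC3 overlaps ESRP2 and had 458 and 680 counts.

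The remaining regulators were almost absent from the parental library. ESRP1, the relative of ESRP2, had 0 parental and 19 RT-R counts. With 3 counts in place of 0 and the 19 taken as exact, the ratio was 5.68, which leaves out the counting error of the 19. ESRP1 stayed 1 count short of the minimum and was not called. OVOL1, a zinc finger repressor of mesenchymal genes, had 0 and 2 counts. GRHL2, a Grainyhead factor that drives epithelial junction genes, had 0 and 1 counts. Both lay at or under 3 counts in each library, so a difference was not detectable and no ratio is given. The plot of counts by gene shows these 3 genes at the lower left.

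The wider list of epithelial regulators held several calls. Of 24 further genes, 17 were measured, 6 were called higher and 1 lower, beside 6.89% and 3.97% over all measured genes, with a median log2 ratio of 0.12. TFAP2C, a transcription factor of mammary epithelium, rose from 534 to 2463 counts, 4.14-fold (3.77 to 4.55). MAL2, a protein of apical transport, rose from 62 to 293 counts, 4.24-fold (3.21 to 5.67). SPINT2, an inhibitor of membrane serine proteases, rose from 1635 to 4435 counts, 2.43-fold (2.30 to 2.58). SPINT1, the inhibitor that binds matriptase, rose from 5 to 29 counts, 5.201-fold (1.99 to 17.2). It reached 20 counts in RT-R alone, and was chosen here after its values were seen, for its tie to ST14. MUC1, an apical mucin, fell from 425 to 99 counts, 4.79-fold (3.84 to 6.02). The Grainyhead relatives gave few reads: GRHL1 had 23 and 28 counts and GRHL3 had 0 and 1. The genes called in this list thus moved in both directions.

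The genes of the set were also divided by how well they were counted. Of the 28 measured genes, 20 had 100 or more counts in a library and 8 had 20 to 99. Of the 20, 3 were called higher and 1 lower, where 3.78% and 2.81% of all 9418 such genes were called. Their median log2 ratio was 0.02, beside -0.04 over all such genes. Of the 8, 2 were called higher and 0 lower, where 16.0% and 7.35% of all 3226 such genes were called, and their median was 0.70 beside 0.09. Both calls among the 8 are of TJP3 and CGN, which with EPCAM reached 20 counts in RT-R alone, and over the 5 that reached it in both libraries the median was 0.41. At the limit of 100, CLDN1, DSC2, EVPL and ESRP2 reached 100 counts in RT-R alone, PKP2 in the parental library alone, and 15 genes in both. These figures are therefore a description and support no difference between the classes. The genes just inside the limit of 100 were CLDN1, with at most 105 counts, and PKP2, with at most 110, and just outside were CDS1 with 90 and PPL with 89. Neither of the 2 intervals wholly beyond 2-fold belongs to a poorly counted gene.

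**Figure D4:**
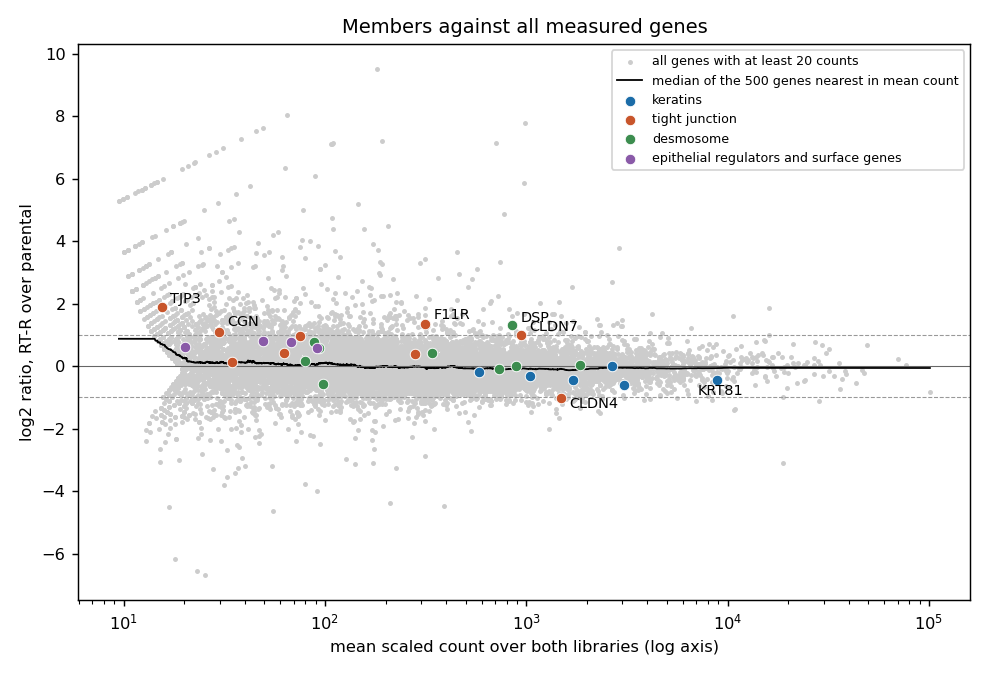
Log2 ratio, RT-R over parental (y), against the mean scaled count over both libraries (x, log axis) for all measured genes in grey and the 28 measured members in colour, with the running median in black. DSP, F11R, CLDN7 and CLDN4 stand off the running median at high counts, and the running median itself climbs at the low end, where TJP3 lies.

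The groups did not move alike. The median log2 ratio was -0.39 for the keratins, 0.97 for the tight junction genes, 0.17 for the desmosome genes and 0.70 for the epithelial regulators and surface genes. The tight junction median includes TJP3 and CGN, and the last median EPCAM. These genes reached 20 counts in RT-R alone and could enter only by being high there, so the medians are a description. Of the 28 measured genes, 13 had an interval wholly above equal expression and 7 wholly below, where 27.7% and 30.4% of all measured genes did, and 5 of the 7 were keratins. At a ratio of 1.5-fold alone 11 of the 28 were higher and 2, CLDN4 and KRT19, were lower, where 14.9% and 12.6% of all measured genes were. The difference between the groups was not tested, since the genes are not replicates.

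Position on the chromosome was then set beside each ratio, because the genes are spread over 15 chromosomes. For each gene the median log2 ratio of the measured genes next to it, up to 15 on each side, was taken. The gene order is that of RefSeq on GRCh38.p14, and no coordinates are mixed with the hg19 counts. DSP stood in a region at -0.48 and had a log2 ratio of 1.30, which is 1.78 above its neighbours. F11R, at 1.35, stood 1.496 above a region at -0.14. CLDN7, at 1.01, lay in a region near 0, at 0.0033. The 3 best counted genes called higher thus stood above neighbours that were lower or near equal. CLDN4 and CLDN3 are adjacent in a region at -0.38 and -0.39, CLDN4 at -1.02 and CLDN3 at 0.13. Both had lower neighbours, and of the pair only CLDN4 was itself lower, although CLDN3 has a wide interval.

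Other adjacent genes of the set can be read side by side. MARVELD2 and OCLN are next to each other on chromosome 5, at a neighbour median of 0.020. KRT80, KRT7, KRT81, KRT8 and KRT18 lie together on chromosome 12, where neighbour medians ran from -0.21 to -0.16, members of the set included. Against these medians KRT7 lay at -0.25, KRT81 at -0.25, KRT80 at -0.15, KRT8 at -0.016 and KRT18 at 0.21. KRT19 and JUP lie 9 table genes apart on chromosome 17 with the same neighbour median of -0.021, KRT19 at -0.59 and JUP at 0.032. DSC3, DSC2 and DSG2 lie in 1 cluster on chromosome 18, where DSC2 and DSG2 stood 0.39 and 0.29 above their neighbours. After this subtraction CLDN1, at 1.09, and ST14, at 1.10, also passed the limit, which made 7 genes called higher, and CLDN4 no longer did. The part of chromosomal regions in these ratios was not tested.

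**Figure D5:**
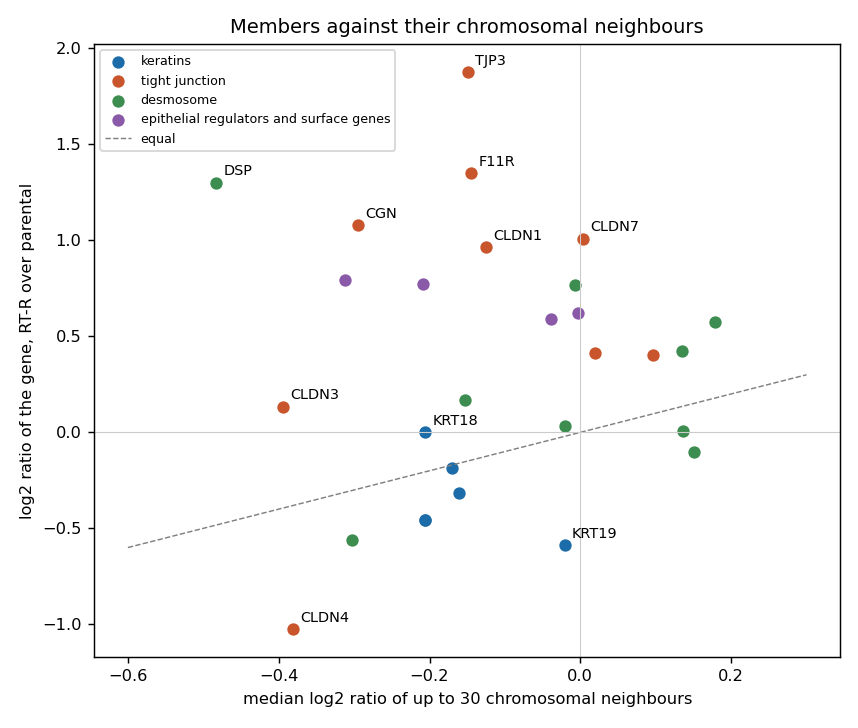
Log2 ratio of each measured member (y) against the median log2 ratio of up to 30 chromosomal neighbours (x), with a dashed line of equal values. DSP, F11R, CGN, TJP3 and CLDN7 lie far above the line and CLDN4 below it, while KRT18 lies above it and the other chromosome 12 keratins lie below or close to it.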

How the data were processed

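The deposited values are raw counts by gene symbol, 1 table for each line, which the authors made from Lexogen QuantSeq 3' tag libraries of total RNA, per the labels' protocols. The tools Bowtie2, bedtools and bcl2fastq 2.20.0.422 and the hg19 build are named, per the submitters' processing notes. What each did, which annotation was counted and how strand and multiple matches were treated is not given in the sources used here. Rows were summed by symbol (25737 rows, 24462 symbols, no row without a name, no member repeated). Scaling used TMM size factors from edgeR 4.0.16 with R 4.3.3 (RT-R to parental size ratio 1.12), and no edgeR test was run. Log2 ratios used scaled counts plus a pseudocount of 0.5, and the 2-fold rule was applied to them. Intervals are exact conditional (Clopper-Pearson) 95% intervals from scipy 1.17.1 in Python 3.11.15. A count of 0 was set at 3 counts to give a ratio, with the other count taken as exact, so that ratio is not an interval bound. The calculations were tested on simulated data. RefSeq placed 98.6% of the measured genes. The genes and lists were chosen with earlier results of these data known. All 33 members are named, with at most 3 called genes per direction from each wider list, ranked by the interval bound nearest to 1. SPINT1 is an exception, named past CD24, a gene called higher that ranked ahead of it.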

Additional observations from a re-analysis of the deposited data

How the results depend on the processing

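No paired analysis was possible because each line has 1 library, so the replicate numbers pair nothing, and no replicate can be left out. Each result was recomputed with total-count, upper-quartile or DESeq2 1.42.0 size factors, with a pseudocount of 5, with count minimums of 0 or 100, with 1.5-fold or 4-fold limits, without the interval, with the fullest row per symbol, with means for medians, with classes by mean scaled count, and after centring on the 500 genes of like mean count or on chromosomal neighbours. Scalings moved the median of all measured genes by at most 0.043 on the log2 scale. The 5 members called higher became 3 at a minimum of 100, 10 at 1.5-fold, 0 at 4-fold and 3 after centring on genes of like count. The 1 called lower, CLDN4, became 2 genes at 1.5-fold and 0 at 4-fold, under total-count or upper-quartile scaling, and under either centring. In the wider lists, 10 genes called higher became 17 at 1.5-fold and 4 at 4-fold. The 5 called lower became 8 at 1.5-fold, 1 at 4-fold, 3 at a minimum of 100 and 3 against chromosomal neighbours. MAGI1 and CLDN2 were those no longer called lower against neighbours. The keratin median of -0.39 became -0.28 after centring on genes of like count and -0.20 on neighbours. The mean of the 20 well counted members was 0.19, beside a median of 0.02. CGN had a log2 ratio of 0.93 with a pseudocount of 5 and 0.98 after centring on genes of like count, under the limit. TJP3 was 1.17 after that centring, with an interval that then included equal expression. CLDN7, F11R and DSP stayed called under the 3 scalings, the pseudocount of 5 and both centrings. The causes of these shifts were not tested. With 1 library per line, depth limits the genes under 100 counts most.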

Other observations

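Genes of the hemidesmosome, which anchors keratins to the basement membrane, and of the larger plakins were measured in 7 of 8 cases, with 1 called higher and 1 lower, where 6.89% and 3.97% of all measured genes were. ITGB4, the integrin beta 4 chain of hemidesmosomes, rose from 755 to 2100 counts, 2.49-fold (2.29 to 2.71). ITGA6, its partner chain, had 1474 and 3210 counts, for a ratio of 1.95 (1.84 to 2.08), and is named after its values were seen. COL17A1, the transmembrane collagen of the same structure, fell from 204 to 67 counts, 3.40-fold (2.56 to 4.54). The 2 integrin chains thus lay higher while the collagen was lower.

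Of 10 adherens junction genes 9 were measured, 1 was called higher and 0 lower, where 6.89% and 3.97% of all measured genes were, with a median log2 ratio of 0.06. CDH3, the P-cadherin gene of basal epithelium, rose from 9 to 62 counts, 6.18-fold (3.05 to 14.1), but it reached 20 counts in RT-R alone and so could pass only by being high there. CDH1, which encodes E-cadherin, had 32 and 68 counts, for a ratio of 1.91 (1.23 to 2.998), and was not called. No hypothesis was tested.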
